A study of Mus musculus with 2 samples.

Results

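Genes of the retinoic acid pathway were followed in single-cell RNA sequencing of neonatal mouse digits treated with FGF8 or BSA after amputation. The genes were chosen by symbol and are 9 of the 33696 genes that both libraries list. They comprise the retinaldehyde dehydrogenases *Aldh1a1*, *Aldh1a2* and *Aldh1a3*, the retinoic acid hydroxylase *Cyp26b1*, the cellular retinoic acid binding proteins *Crabp1* and *Crabp2*, and the nuclear receptors *Rara*, *Rarb* and *Rarg*. Retinoic acid is made from vitamin A inside cells: alcohol dehydrogenases oxidize retinol to retinaldehyde, and retinaldehyde dehydrogenases oxidize retinaldehyde to retinoic acid. The acid then binds receptors that sit on DNA as partners of retinoid X receptors and switch target genes on, while CYP26 enzymes break it down and so set where in a tissue the signal acts. In the developing limb the acid is kept low distally by *Cyp26b1*, and its breakdown is needed for cartilage and for the outgrowth and patterning of the limb.

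Both libraries came from hindlimb digits 2 and 4 of ICR mice whose digits were amputated through the second phalanx (P2) at postnatal day 3. At postnatal day 7 a single agarose bead soaked in FGF8 (500 ng/µl) or in 0.1% BSA was placed at the wound. Cells were taken at postnatal day 8, after 24 h with the bead. Each treatment was 1 pool of 20 digits from 5 mice of both sexes, from which epidermis was removed and the tissue distal to the stump was dissociated, so each condition is 1 library and no difference between them has a replicate check. Every digit given FGF8 went into its pool, which therefore likely includes some that would not have formed a joint.

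In this droplet method each transcript is counted once through its unique molecular identifier (UMI). The BSA library held 67739460 UMIs in 3703 barcodes and the FGF8 library 124889213 UMIs in 7249 barcodes, of which 3252 and 6715 passed the filters. Median UMIs per kept cell were 15377 and 12251. The libraries shared 6 barcode sequences, 4 of them among kept cells. Levels below are UMIs of a gene per 1000000 UMIs summed over the cells of a type (CPM), and ratios are log2 of FGF8 CPM over BSA CPM. All intervals are 95% intervals for counting error only, and they leave out the spread between cells, digits and animals. The pools differed in sex: of cells whose sex could be called from *Xist* and Y-linked transcripts, 79.3% were female in the BSA library and 24.6% in the FGF8 library, and values for each sex are therefore given beside the ratios of the 9 genes in fibroblast-like cells and of *Crabp1* in macrophage-like cells. Ratios in the other cell types are mostly given for both sexes together, and subclusters were not split by sex.

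Most transcripts of the pathway were in fibroblast-like cells, the largest cluster, with 1714 BSA and 3324 FGF8 cells. This cluster held 35453669 of the 54376379 UMIs of kept BSA cells and 69847438 of the 103223720 of kept FGF8 cells. A gene at the same level in every cell type would therefore also have most of its UMIs there. The cluster was named from *Pdgfra*, *Dpt*, *Col1a1*, *Col3a1*, *Lum*, *Dcn* and *Fbln1*, and its leading genes included *Mfap4*, *Osr1*, *Dpt* and *Crabp1* itself, although none of the 9 genes was used to draw the clusters. Tenocyte markers were nearly as enriched, with a mean log2 fold of 3.03 against 3.11 for fibroblast markers, so the name covers cells with tendon transcripts. Of all UMIs of *Crabp1*, 97.2% (BSA) and 95.4% (FGF8) were in this cluster. The shares were 94.99% and 96.1% for *Aldh1a2*, 92.2% and 91.8% for *Cyp26b1*, and 90.4% and 92.4% for *Crabp2*. *Rara* was the most widely spread of the receptors, with 61.6% and 65.3% in fibroblast-like cells.

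Outside fibroblast-like cells, each gene had its own order of levels. *Rara*, which encodes retinoic acid receptor alpha, was highest in neutrophil-like cells, at 222 CPM (BSA) and 188 CPM (FGF8), followed by macrophage-like cells at 80.2 and 76.2 CPM. After each cell was thinned to 2000 UMIs, 40.9% and 35.2% of neutrophil-like cells held a *Rara* UMI, against 11.2% and 10.4% of fibroblast-like cells. *Rara* was lowest in erythroid-like cells, at 6.32 and 3.01 CPM. *Rarg* encodes receptor gamma and is known from cartilage and skin. Among whole cell types it was highest in chondrocyte-like cells at 89.6 and 75.2 CPM and lowest in erythroid-like cells at 8.43 and 7.53 CPM. Of the fibroblast-like subclusters described below, the *Tnfrsf19*-led (95.01 and 84.8 CPM) and *Corin*-led (96.6 and 104 CPM) stood above chondrocyte-like cells. With clusters drawn at a resolution of 0.2, chondrocyte-like cells had 89.9 and 76.05 CPM. An unnamed cluster led by *Lgals7* and *Fabp5* had 92.4 and 74.996 CPM there. *Rarb*, receptor beta, was found mainly in fibroblast-like cells (18.8 and 10.4 CPM) and in smooth muscle or pericyte-like cells (16.2 and 18.0 CPM). In the latter the libraries differed by 0.15 (-0.41 to 0.73).

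**Figure D1:**
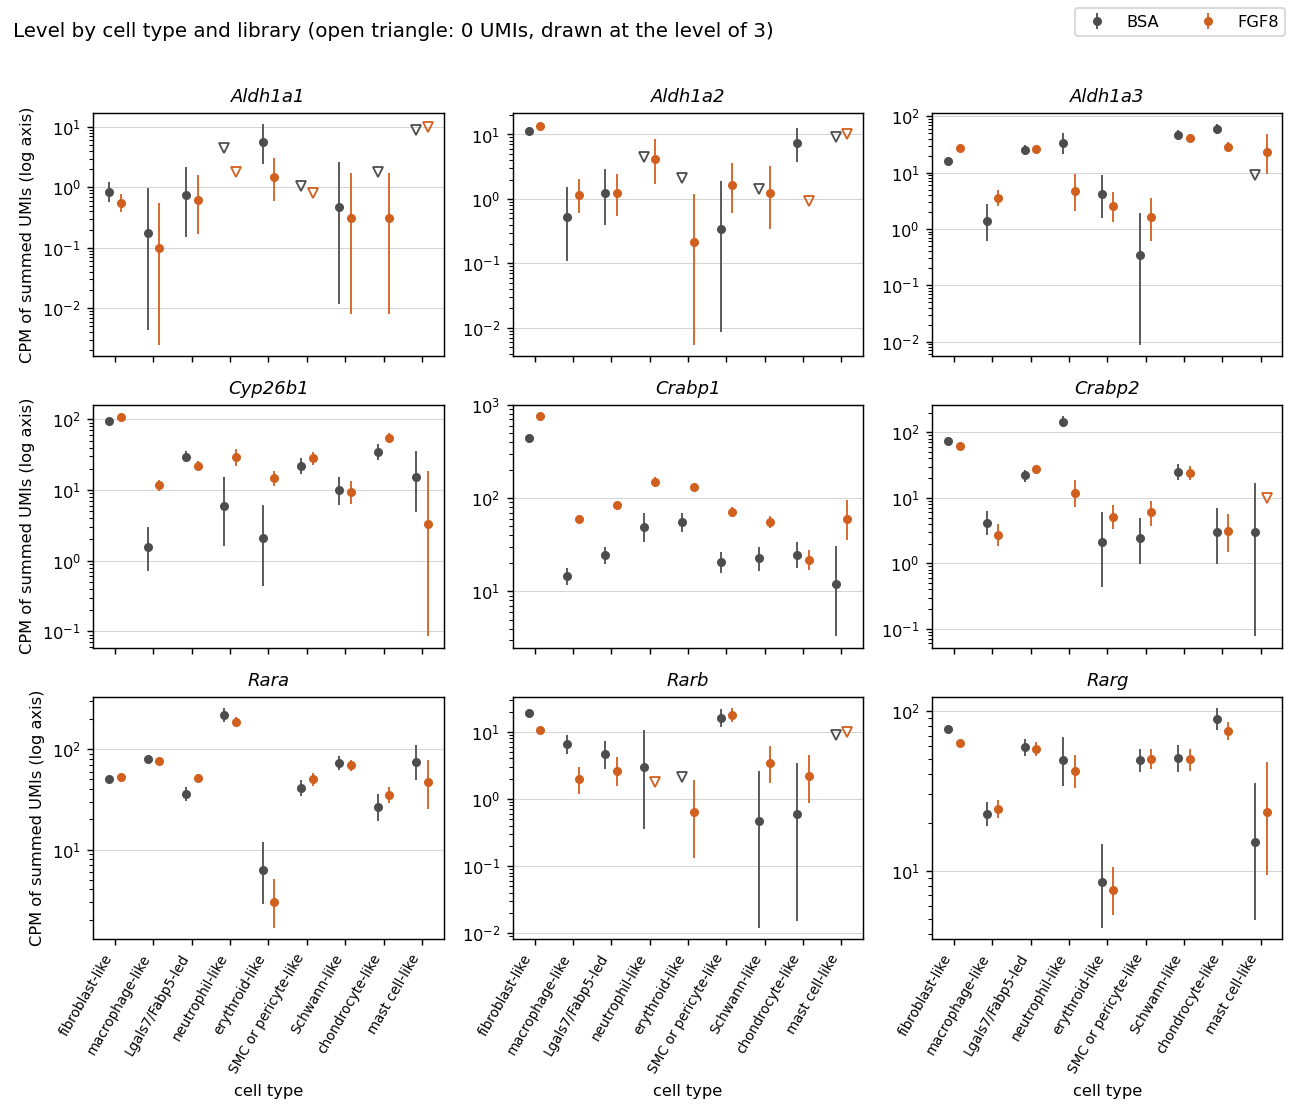
Level of each of the 9 genes by cell type in the BSA (grey) and FGF8 (orange) libraries, as CPM of summed UMIs on a log axis with exact Poisson 95% intervals; open triangles mark 0 UMIs, drawn at the level that 3 UMIs would give. Among whole cell types *Rara* peaks in neutrophil-like cells, *Rarg* in chondrocyte-like cells, and *Crabp1*, *Cyp26b1* and *Aldh1a2* in fibroblast-like cells. The high *Crabp2* point of BSA neutrophil-like cells comes almost wholly from 1 cell. Much of the high *Aldh1a3* point of BSA chondrocyte-like cells also comes from 1 cell.

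The 3 dehydrogenases differed in where they were found. *Aldh1a2* was almost restricted to fibroblast-like cells, and in chondrocyte-like cells it had 12 UMIs in 4 cells of the BSA library and 0 in the FGF8 library, at least 7.73-fold lower against a floor of 3 counts. When the libraries were clustered without integration, the chondrocyte-like cells held only 3 and 0 UMIs of it and no ratio could be formed. *Aldh1a3* was found in several cell types. In Schwann-like cells, the glia of peripheral nerves, it stood at 46.6 and 40.7 CPM, with a UMI in 33.9% and 30.8% of cells and a log2 ratio of -0.19 (-0.58 to 0.20). In chondrocyte-like cells it was lower in the FGF8 library, at 59.3 against 29.1 CPM (log2 ratio -1.03, -1.45 to -0.60), but 53 of the 98 BSA UMIs came from 1 cell and the share of cells with a UMI was 12.1% in BSA and 21.8% in FGF8. The sums and the shares of cells therefore differ in direction there, and no order is read from them. Without integration the ratio was -0.66 (-1.12 to -0.20), so neither dehydrogenase was past a 2-fold difference there in that clustering. *Aldh1a1* was scarce everywhere, with 30 and 39 UMIs in fibroblast-like cells and 8 and 7 in erythroid-like cells.

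*Cyp26b1* UMIs were also found in the skeletal and mural cells. Chondrocyte-like cells had 35.1 CPM in BSA and 54.8 CPM in FGF8 (log2 ratio 0.64, 0.21 to 1.10), with a UMI in 36.4% and 48.6% of cells, and the ratio in female-called cells was 1.00 (0.38 to 1.63). Smooth muscle or pericyte-like cells had 22.1 and 28.1 CPM (0.35, -0.11 to 0.82). As a share of the fibroblast-like level these were 36.8% and 50.05% in chondrocyte-like and 23.2% and 25.7% in mural cells, and both lay within the range of the 7 fibroblast markers. In chondrocyte-like cells these markers ran from 5.27% (*Dpt*) to 42.9% (*Dcn*) in BSA and from 5.82% to 58.4% (the same 2 genes) in FGF8. In mural cells they ran from 3.76% (*Pdgfra*) to 26.5% (*Col3a1*) and from 10.3% to 45.2%. Only *Col3a1* stood above *Cyp26b1* in BSA mural cells, and the next marker, *Dpt*, was at 10.3%. In FGF8 mural cells *Col3a1* and *Dcn* (28.9%) stood above it, and the next, *Col1a1*, was at 21.0%. In chondrocyte-like cells only *Dcn* stood above *Cyp26b1* in each library, and the next marker, *Lum*, was at 35.6% (BSA) and 31.5% (FGF8). *Crabp1* was at 5.57% and 2.90% of its fibroblast-like level in the same cells. Whether chondrocyte-like or mural cells express *Cyp26b1* or hold stray fibroblast transcripts of it was not tested. Among the 7 genes with at least 10 UMIs in chondrocyte-like cells, 2 were past a 2-fold difference, the 2 dehydrogenases with uneven cells just described, where 16.6% of all 12138 genes with as many UMIs were.

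*Crabp1* UMIs were also found in cells not known for it. With both sexes together they were higher in FGF8 in 7 of the 8 other cell types, in mast cell-like cells from 4 and 18 UMIs. The direction could differ by sex. Schwann-like cells had a ratio of 1.30, and -0.27 (-1.30 to 0.67) when female-called. Chondrocyte-like cells had -0.18, and 2.71 (1.45 to 4.26) when female-called. Macrophage-like cells had 14.6 CPM in BSA and 59.4 in FGF8, a log2 ratio of 2.03 (1.70 to 2.37). The ratio was 2.48 (1.76 to 3.24) in female-called cells and only 0.27 (-0.18 to 0.75) in male-called cells, at 42.7 and 51.4 CPM. These levels were 3.27% and 7.86% of the level in fibroblast-like cells of the same library. The 7 fibroblast markers stood at 2.20% to 4.93% (BSA) and 8.66% to 10.9% (FGF8) of their fibroblast-like level in the same macrophage-like cells. *Crabp1* lay within the range of these markers in BSA and just under it in FGF8. *Cyp26b1* in macrophage-like cells was at 1.64% in BSA, below the range, and at 10.7% in FGF8, within it. Its log2 ratio there was 2.91 (1.93 to 4.07), from 9 and 120 UMIs. In neutrophil-like cells *Crabp1* was at 11.1% and 19.7%, where the markers stood at 10.2% to 20.03% and 17.8% to 27.2%. *Cyp26b1* was at 6.25% and 26.7% there, below the markers in BSA and within their range in FGF8. Whether macrophage-like or neutrophil-like cells express either gene was not tested. In erythroid-like cells *Crabp1* was at 12.5% (BSA) and 17.6% (FGF8). The markers stood at 3.58% to 12.8% and 8.20% to 11.5% there. *Cyp26b1* was at 2.21% and 13.4%, so both genes lay above the markers in FGF8. Shares divide by the fibroblast-like level, which for the 7 markers summed was 31484 CPM in BSA and 16914 CPM in FGF8. The source of these UMIs and of the differences between libraries was not tested. *Crabp2* in BSA neutrophil-like cells, at 146 CPM, rested on 98 UMIs of which 94 were in 1 cell.

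Within fibroblast-like cells, 5 of the 9 genes were higher in FGF8 and 4 lower, and 0 passed a 2-fold difference. Of the 20048 genes with at least 10 UMIs, 6.69% were more than 2-fold higher in FGF8 and 5.05% more than 2-fold lower, and 55.8% had a ratio below 0. The median log2 ratio was 0.08 over the 9 genes and -0.07 over all genes. The genes are described by role.

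**Figure D2:**
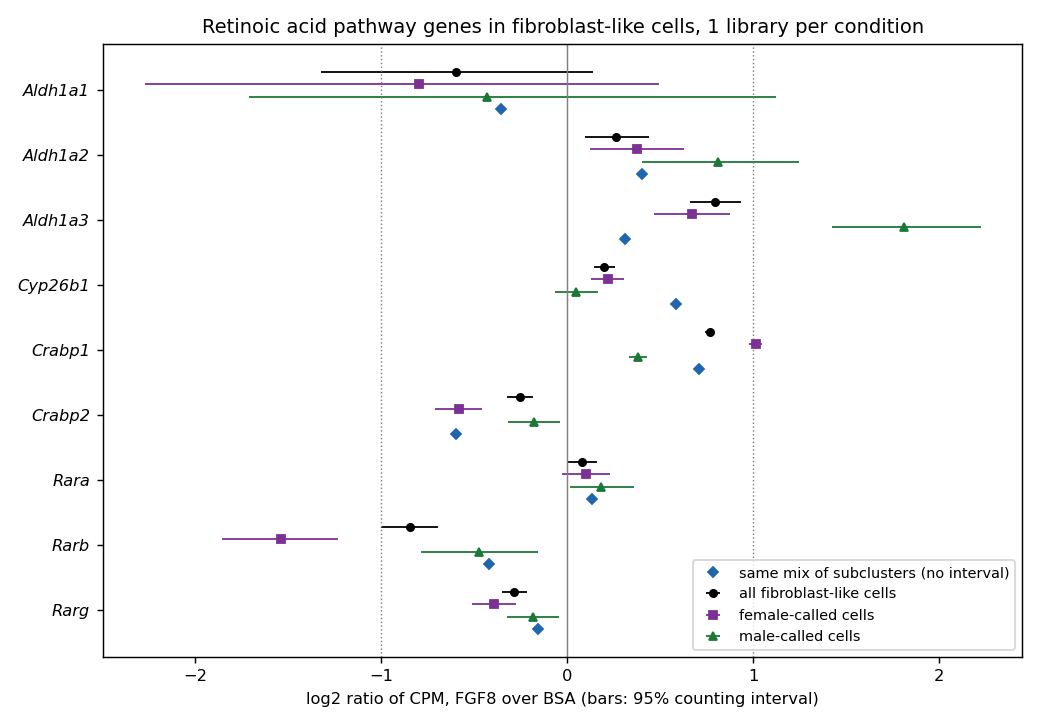
Log2 ratio of CPM, FGF8 over BSA, of each gene in fibroblast-like cells: all cells (black), female-called cells (purple), male-called cells (green) and with each subcluster given the same share of UMIs in both libraries (blue, no interval). Bars are 95% counting intervals and dotted lines mark a 2-fold difference; *Rarb* lies left of 0 and *Crabp1* and *Aldh1a3* right of it in all 4 readings, while *Rarb* and *Aldh1a3* move most between sexes.

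Of the enzymes that make retinoic acid, *Aldh1a3* (chr7:66040638-66077850, GRCm39) was higher in FGF8. It had 570 UMIs in BSA and 1948 in FGF8, or 16.1 and 27.9 CPM, a log2 ratio of 0.79 (0.66 to 0.93), above that of 90.6% of genes. The share of cells with a UMI was 7.64% and 15.5%. In BSA, 1 cell held 100 of the 570 UMIs, and the top 10% of cells held all of them. The ratio was 0.67 in female-called and 1.81 (1.42 to 2.22) in male-called cells, with male-called cells of the BSA library low at 8.18 CPM from 56 UMIs and those of the FGF8 library at 28.7 CPM. *Aldh1a2* (chr9:71122630-71203527), the main limb and trunk enzyme of the embryo, stood at 11.2 and 13.5 CPM, a ratio of 0.26 (0.09 to 0.44), in 8.93% and 9.03% of cells. By sex it was 0.38 (0.12 to 0.63) for females and 0.81 (0.40 to 1.25) for males. *Aldh1a1* (chr19:20469539-20622825) was at 0.85 and 0.56 CPM and its ratio of -0.60 (-1.32 to 0.14) spanned 0, as did those of each sex (-0.79 and -0.43). Its close paralog *Aldh1a7*, with which it could share reads, had 1 and 2 UMIs.

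*Cyp26b1* (chr6:84548396-84570890), which inactivates retinoic acid, was slightly higher in FGF8 when all fibroblast-like cells were summed. It stood at 95.4 CPM in BSA and 110 CPM in FGF8, a log2 ratio of 0.20 (0.14 to 0.26), and the share of cells with a UMI was 42.2% and 49.4%. The ratio was 0.22 in female-called cells, and 0.05 (-0.07 to 0.16) in male-called cells. With each cell weighted equally it was 0.48, and with each subcluster given the same share of UMIs in both libraries it was 0.59. The direction was shared by these readings and the size was not.

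The 2 binding proteins went opposite ways. *Crabp1* (chr9:54671171-54680403), which binds retinoic acid in the cytoplasm, was at 445 CPM in BSA and 756 CPM in FGF8, a log2 ratio of 0.76 (0.74 to 0.79), above that of 90.2% of genes. Cells with a UMI made up 55.2% and 70.0%, and 30.9% and 41.3% after thinning to 2000 UMIs, so the difference was in the number of positive cells as well as in the sum. The transcript was uneven between cells: the top 10% of cells held 67.3% (BSA) and 61.9% (FGF8) of its UMIs. Female-called cells had a ratio of 1.01 (0.98 to 1.05) and male-called cells 0.38 (0.33 to 0.43). *Crabp2* (chr3:87855973-87860683), which carries the acid to the nuclear receptors, was at 74.3 and 62.2 CPM, a ratio of -0.26 (-0.33 to -0.18), in 32.2% and 31.4% of cells, and of -0.58 for females and -0.18 for males. This small difference did not keep its sign: without the *Prg4*-led subcluster described below it was 0.002, and with a stricter cell filter 0.25.

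Among the receptors, *Rarb* (chr14:5650540-6041094) was lower in FGF8. It had 666 UMIs in BSA and 729 in FGF8 from more cells, or 18.8 and 10.4 CPM, a log2 ratio of -0.85 (-1.001 to -0.69), lower than that of all but 7.85% of genes. Cells with a UMI made up 15.5% and 10.2%. The sign was shared by both sexes, at -1.54 (-1.86 to -1.23) in female-called and -0.48 (-0.79 to -0.16) in male-called cells. *Rarg* (chr15:102143373-102165952) was at 76.7 and 63.0 CPM (-0.28, -0.35 to -0.21), in 68.3% and 62.1% of cells, with -0.39 for females and -0.19 for males. *Rara* (chr11:98818612-98865768) was at 50.2 and 53.1 CPM, and its ratio of 0.08 (-0.0026 to 0.16) spanned 0, with 0.10 for females and 0.18 for males. *Rarb* overlaps *Top2b* on the opposite strand, and the strand setting of the counting is not given in the sources used here.

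*Rarb* is itself a target of retinoic acid, through an element in its promoter that receptors bind, and the element is shown because it is why *Rarb* is widely used as a readout of the signal. The RefSeq table of promoter windows (250 bases before to 50 after a start site, GRCm38.p6) held windows for 7 of the 9 genes, 12 in all; *Crabp2* and *Aldh1a3* had no entry. The windows were searched on both strands for a direct repeat with 5 bases between the half-sites, each of which could be AGGTCA or AGTTCA or GGGTCA or GGTTCA. Of the 7 genes only *Rarb* held one, from 53 to 37 bases before the start site. It is printed with 6 bases on each side (chr14:16575507-16575535 in GRCm38.p6, minus strand; its only match on chromosome 14 of GRCm39 is chr14:5894228-5894256, plus strand), with the half-sites in capitals:
Rarb: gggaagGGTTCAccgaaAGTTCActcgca
Such a repeat was present in 32 of the 32851 windows, or 0.0974%, and in 31 of 27025 genes. In GENCODE vM39 the stretch overlaps an exon of *Rarb*. A match in letters is a description of the sequence, and these data hold no measure of binding to it.

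Fibroblast-like cells fell into 6 subclusters, none of which passed the naming rules, so they are called by a leading gene. The *Prg4*-led subcluster, whose leading genes also included *Mmp3*, *Ass1* and *Plk1*, a kinase of dividing cells, made up 14.8% (13.2 to 16.6) of BSA and 29.0% (27.5 to 30.6) of FGF8 fibroblast-like cells, and 22.4% and 48.3% of their UMIs. The summed level of 5 joint lining markers, *Prg4* among them, was 309 CPM in BSA and 2111 CPM in FGF8 over all fibroblast-like cells, and that of the 7 fibroblast markers was 31484 and 16914 CPM; the part of either in the ratios was not tested beyond the splits given here. The *Tnfrsf19*-led subcluster, with *Sema3a* among its leading genes, was 38.3% and 28.9%. The *Fmod*-led (with *Comp* and *Mgp*), *Lpl*-led (with *Dlk1*), *Lars2*-led (median 2533 UMIs per cell) and *Corin*-led subclusters made up the rest. The mix therefore differed between libraries, and each gene was compared within subclusters too.

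*Cyp26b1* and *Aldh1a3* had their highest levels in different subclusters. *Cyp26b1* was highest in the *Tnfrsf19*-led subcluster, at 208 CPM in BSA and 287 CPM in FGF8, with a UMI in 68.1% and 71.7% of cells. *Aldh1a3* was at its lowest there, at 4.39 and 4.80 CPM. In the *Prg4*-led subcluster *Aldh1a3* stood at 32.7 and 44.2 CPM, its highest level in each library, and *Cyp26b1* at 41.9 and 56.5 CPM, still above it. The other dehydrogenases did not follow *Aldh1a3*: *Aldh1a2* was at 12.7 and 13.1 CPM in the *Tnfrsf19*-led and 6.42 and 13.996 CPM in the *Prg4*-led subcluster, and *Aldh1a1* had at most 17 UMIs in any. *Rarb*, like *Cyp26b1*, was higher in the *Tnfrsf19*-led than in the *Prg4*-led subcluster, with 36.5 and 29.96 CPM against 7.80 and 2.94 CPM. *Crabp1* was high in both, at 746 and 1086 CPM and at 527 and 933 CPM.

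**Figure D3:**
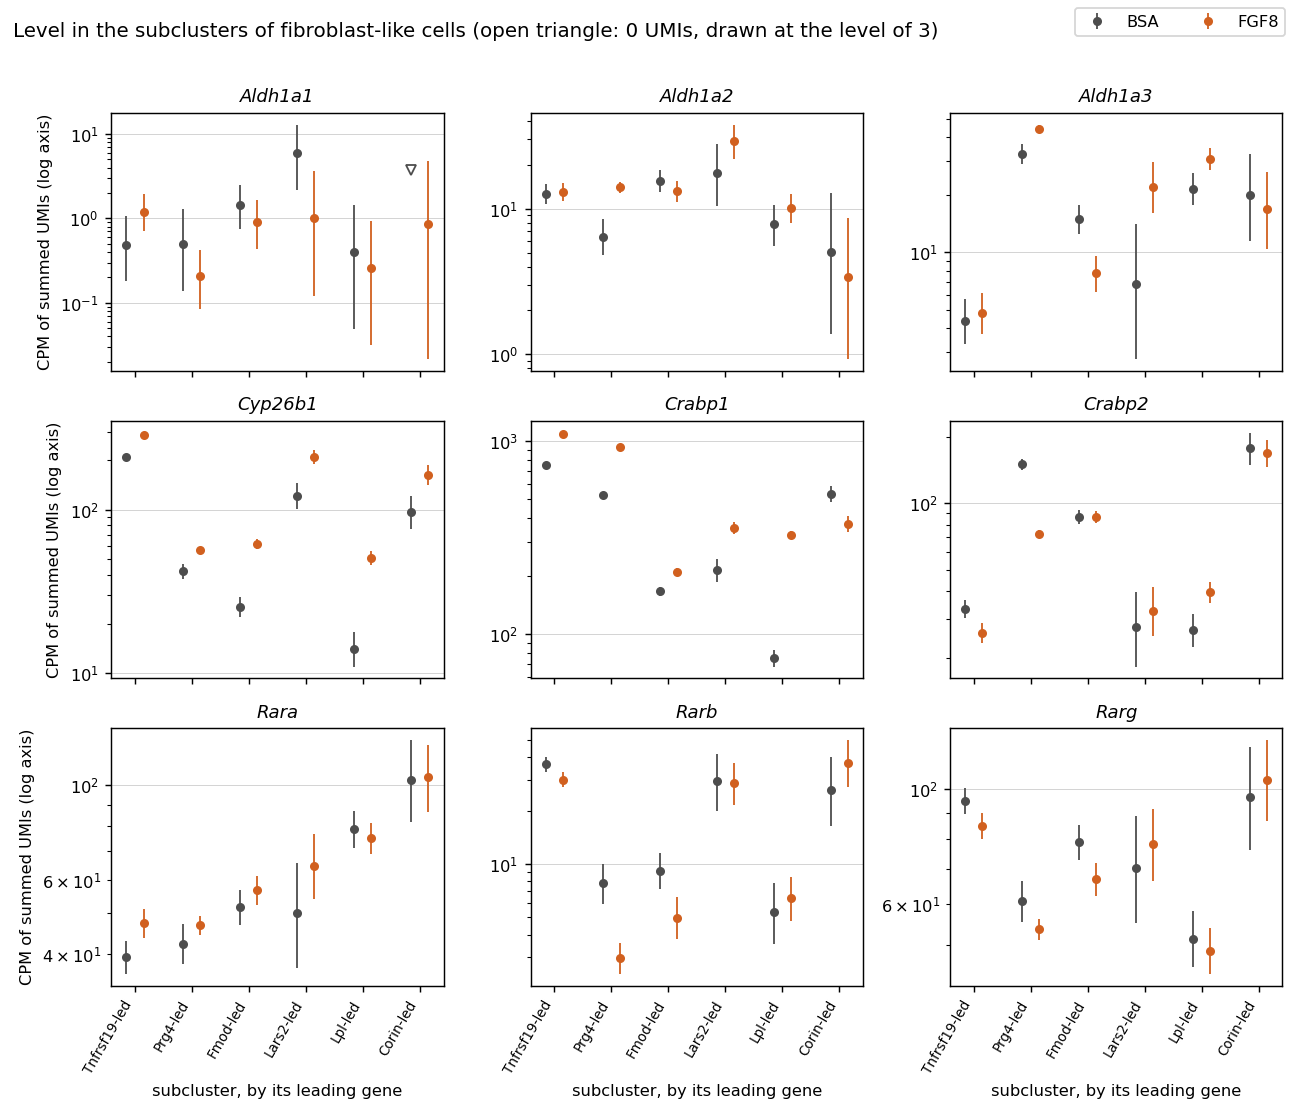
Level of each gene in the 6 subclusters of fibroblast-like cells, BSA (grey) and FGF8 (orange), as CPM of summed UMIs on a log axis with exact Poisson 95% intervals; the open triangle marks 0 UMIs, drawn at the level of 3. *Cyp26b1* is higher in FGF8 in 6 of 6 subclusters, and its highest levels, in *Tnfrsf19*-led cells, go with the lowest *Aldh1a3* levels.

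Within subclusters, *Cyp26b1* was higher in FGF8 in 6 of 6, with every counting interval above 0. The log2 ratio was 0.46 in the *Tnfrsf19*-led, 0.43 in the *Prg4*-led, 1.28 in the *Fmod*-led (25.3 to 61.5 CPM), 0.79 in the *Lars2*-led, 1.86 in the *Lpl*-led (13.99 to 50.8 CPM) and 0.75 in the *Corin*-led subcluster. Each of the 6 was larger than the ratio of 0.20 over the whole cluster, in which the *Tnfrsf19*-led cells, richest in *Cyp26b1*, made up 38.3% of BSA and 28.9% of FGF8 cells. *Crabp1* was higher in FGF8 in 5 of 6, most in the *Lpl*-led subcluster (75.1 to 326 CPM, 2.12, 1.96 to 2.28), and lower in the smallest, *Corin*-led subcluster (531 to 372 CPM, -0.51, -0.71 to -0.32). *Crabp1* in *Lpl*-led cells had a UMI in 40.9% of BSA and 59.6% of FGF8 cells.

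In the *Prg4*-led subcluster *Crabp2* and *Rarb* were more than 2-fold lower in FGF8. *Crabp2* stood at 150 and 72.8 CPM there (-1.05, -1.15 to -0.94), with a UMI in 60.6% and 47.5% of cells, and was higher in FGF8 in the *Lpl*-led subcluster (26.6 to 39.6 CPM, 0.57, 0.27 to 0.88). *Rarb* had a ratio of -1.41 (-1.88 to -0.93) in the *Prg4*-led and -0.88 (-1.41 to -0.37) in the *Fmod*-led subcluster, -0.28 (-0.48 to -0.09) in the *Tnfrsf19*-led one, and intervals that spanned 0 in the other 3. *Aldh1a2* was higher in *Prg4*-led cells, at 6.42 and 13.996 CPM (1.13, 0.71 to 1.57). *Aldh1a3* was higher there too (0.43, 0.24 to 0.63), as in the *Lpl*-led (0.52, 0.19 to 0.86) and *Lars2*-led subclusters (1.69, 0.53 to 3.08, from 7 and 44 UMIs). In *Fmod*-led cells its ratio was -0.94 (-1.35 to -0.53), but 1 BSA cell held 100 of 125 UMIs and the share of cells with a UMI was 5.12% in BSA and 9.15% in FGF8, so no order is read there. In the *Prg4*-led subcluster 4 of the 9 genes were past a 2-fold difference, 1 of them *Aldh1a1* with 4 and 7 UMIs, against 15.3% of all 16943 genes there. The count was 2 of 8 in the *Lpl*-led subcluster, against a background of 10.5%, 1 of 9 in the *Fmod*-led one (9.52%) and 1 of 9 in the *Tnfrsf19*-led one (8.31%), where it was *Aldh1a1* with 6 and 17 UMIs.

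The part of the whole-cluster ratios that goes with the mix was measured by giving each subcluster the same share of UMIs in both libraries. *Rarb* then had a ratio of -0.42 in place of -0.85, *Aldh1a3* 0.31 in place of 0.79, *Crabp2* -0.60 in place of -0.26, and *Cyp26b1* 0.59 in place of 0.20. *Crabp1* was nearly as before, at 0.71. All 9 genes kept their sign.

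Co-detection was counted in single fibroblast-like cells thinned to 2000 UMIs, of which there were 1626 in BSA and 3171 in FGF8. At this depth 40.0% of BSA and 32.2% of FGF8 cells held no UMI of any of the 9 genes. *Cyp26b1* was found in 24.3% (20.6 to 28.2) of *Crabp1*-positive and 10.7% (8.9 to 12.6) of *Crabp1*-negative cells of BSA, and in 24.1% and 15.1% of those of FGF8. It was also found in a larger share of *Rarb*-positive cells, 26.5% against 14.4% in BSA and 32.1% against 18.5% in FGF8, and in 31.6% of *Aldh1a2*-positive against 18.5% of other FGF8 cells. *Aldh1a3* showed the reverse, with *Cyp26b1* in 9.78% of *Aldh1a3*-positive and 19.1% of other FGF8 cells. *Aldh1a2* and *Rarb* were never found in the same cell, in 0 of 68 *Rarb*-positive cells in BSA and 0 of 84 in FGF8, which leaves room for up to 5.28% and 4.30% (exact binomial) and is not far from the 2.57% and 2.46% of *Rarb*-negative cells with an *Aldh1a2* UMI. A cell without a UMI at this depth may still hold the transcript, and stray transcripts can add one, so these shares describe detection only.

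The rest of the pathway was followed with 59 retinoid genes, the 9 included, sorted by role. In fibroblast-like cells 49 of them reached 10 UMIs, 26 with a ratio above 0 and 23 below, and 0 were past a 2-fold difference, against the 6.69% and 5.05% of all genes given above. Their median of 0.02 (order-statistic interval -0.18 to 0.14) lay beside -0.07 for all genes. Among 14 enzymes between retinol and retinaldehyde, 7 were above and 7 below 0. The lowest was *Adh1*, an alcohol dehydrogenase that oxidizes retinol, at 13.2 CPM in BSA and 6.97 in FGF8 (-0.92, -1.10 to -0.73), and the highest *Akr1b8*, an aldo-keto reductase, at 40.2 and 59.3 CPM (0.56, 0.48 to 0.65). Retinol uptake and binding genes ran from *Rbp4*, the plasma retinol carrier (132 and 94.5 CPM, -0.48), to *Rbp7*, which had only 9 and 33 UMIs (0.90, -0.20 to 2.14).

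Of the 6 nuclear receptors 4 had a ratio below 0, where 55.8% of all genes did, and their median was -0.31. The receptors above 0 were *Rara* and *Rxrb*, by 0.08 and 0.01. Of the 8 receptor co-regulators, 6 were below 0 against the same 55.8%, from *Zfp423*, a partner of the receptors, at 31.6 and 19.97 CPM (-0.66, -0.78 to -0.55), to *Nrip1*, a corepressor, at 51.1 and 54.9 CPM (0.10). In the breakdown group *Cyp26a1*, with 51 and 128 UMIs, had a ratio of 0.35 (-0.13 to 0.85) beside 0.20 for *Cyp26b1*, and *Cyp26c1* had 0 and 1 UMI. *Fabp5*, which also carries retinoic acid to the nucleus, stood at 163 and 179 CPM (0.14).

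**Figure D4:**
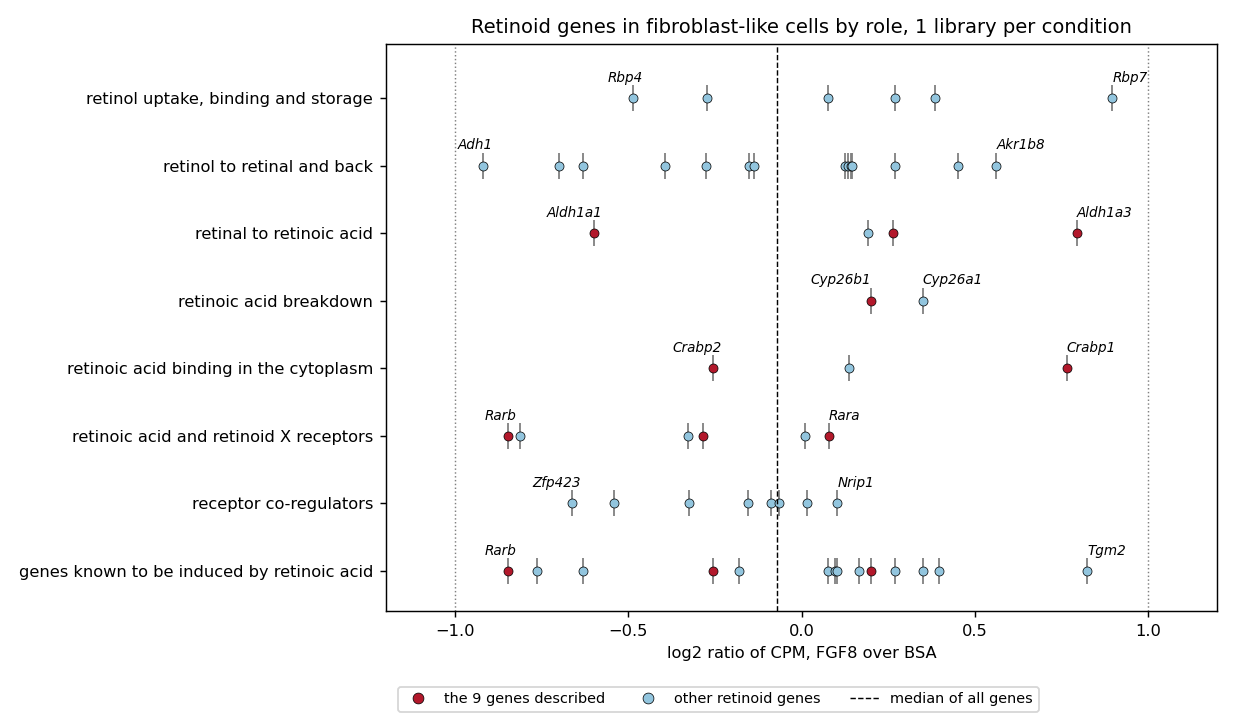
Log2 ratio of CPM, FGF8 over BSA, in fibroblast-like cells for the 49 retinoid genes with at least 10 UMIs, grouped by role, 1 point per gene; the 9 genes described are red, the dashed line is the median of all genes (-0.07) and dotted lines mark a 2-fold difference. The lowest and highest gene of each role are named, and no point lies past a dotted line; genes known to be induced by retinoic acid spread from *Rarb* at -0.85 to *Tgm2* at 0.82.

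Genes known to be induced by retinoic acid did not share a direction. Of 19 such genes 14 had enough UMIs, 9 above and 5 below 0, with a median of 0.10. *Tgm2*, a transglutaminase, was highest at 10.5 and 18.7 CPM (0.82, 0.66 to 0.99), and *Rarb* was lowest. *Cyp26b1* and *Crabp2*, both on this list, had ratios of 0.20 and -0.26.

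Across 28 points, the sums of each library over the 8 other cell types and the 6 subclusters, each gene was set against all genes with at least 100 UMIs by the Pearson correlation of log2(CPM + 1). Points of 1 library share that library and its depth, so the correlations are descriptions. *Cyp26b1* was most like *Ptk7* (0.90), *Setbp1* and *Inhbb*, and *Rarb* most like *Mmp11* (0.88), *Il17rd* and *Ccdc102a*. *Crabp1* was most like *Gm45338* (0.90), *Tfr2* and *Masp1*, and *Crabp2* most like *Insyn1* (0.84) and *Itga11*. *Aldh1a2* was most like *Csrnp3* (0.92), *Loxl1* and *Bicc1*. *Rara* had its nearest genes in *Mnt* (0.96), *Atg3* and *Washc2*, and *Rarg* in *Ahdc1* (0.92), *Tanc1* and *Yes1*. *Aldh1a3* had the weakest nearest gene, *Pthlh* at 0.75, followed by *Rcan1* and *Lmo1*. Among the 9 genes, *Cyp26b1* correlated with *Aldh1a2* at 0.73, *Rarg* at 0.72, *Rarb* at 0.70 and *Crabp1* at 0.70, and with *Aldh1a3* at 0.12.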

How the data were processed

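Cells of 2 pools of digits were captured on a droplet platform, and per the labels the authors deposited raw UMI counts per gene and barcode, made with Cell Ranger 9.0.0 on GRCm39; no other normalization was applied to the deposited counts. The 9 genes and the retinoid lists were chosen with earlier results of these data known. Cells with more than 200 and fewer than 7500 genes and under 15% mitochondrial UMIs were kept. As in the methods of the study, libraries were merged, normalized by SCTransform and integrated by CCA (Seurat 5.3.0, sctransform 0.4.2, R 4.3.3; 30 principal components, resolution 0.05, seed 42), but on the 2976 of 3000 variable features that are no retinoid gene. The fibroblast-like cluster was split again (resolution 0.2) on 2650 features, without retinoid, X- and Y-linked and supplementary table genes. Clusters were named from marker lists (detected in at least 10% of cells, against the 10 leading genes among those in at least 50%), and names rebuilt in this way may differ from those of the study. Doublets were not called or removed.

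Counts were added up over the cells of a type in each library and scaled to 1000000 (Python 3.11.15, numpy 2.4.6, scipy 1.17.1, pandas 2.3.3, matplotlib 3.10.9). Sums have exact Poisson, shares of cells Clopper-Pearson and ratios exact conditional 95% intervals; a 0 entered at a floor of 3 counts, and no ratio was made where both counts were at or under 3. Cell types needed 20 cells per library, and lists 10 UMIs over both libraries. Genes named are the 9, of each list the lowest and highest ratio, the 3 nearest by correlation for genes with at least 100 UMIs (1 of them is not reported here), and *Aldh1a7*; *Cyp26c1*, *Fabp5*, *Rxrb* and *Top2b* were named after their values or positions were seen. With 1 library per condition no test was possible, and treatment, animals, sex and library cannot be told apart. Depth, with medians of 19997 (BSA) and 18606 (FGF8) UMIs per fibroblast-like cell, limits the shares of cells, which were therefore also counted after thinning. The code for the ratios and their intervals was checked on simulated counts. Alternatives were another cell filter, thinning to 2000 or 5000 UMIs, equal weight of cells, each sex alone, centring, other clusterings and other minimums of UMIs; leaving out the *Prg4*-led subcluster and a common mix of subclusters were added after seeing the data.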

Additional observations from a re-analysis of the deposited data

Results flagged for a closer look

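2 results differed in direction between the sexes within the same contrast, FGF8 over BSA, with the counting intervals of both sexes clear of 0 on opposite sides, and neither difference was tested. *Aldh1a3* in the cluster led by *Lgals7* and *Fabp5*, which holds a mix of keratinocyte-like and endothelial cells and stayed unnamed, was at -3.14 on the log2 scale among cells called female (81 UMIs in BSA, 5 in FGF8) and at 2.50 among those called male (5 and 147 UMIs). In that cluster 31 of all 104 BSA UMIs of *Aldh1a3* came from 1 cell. *Rara* in neutrophil-like cells was at 0.90 among cells called female (22 and 24 UMIs in 28 and 32 cells) and at -0.87 among those called male (25 and 124 UMIs in 20 and 203 cells).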

How the results depend on the processing

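No paired analysis was possible because each condition is 1 library. In fibroblast-like cells, 0 of the 9 genes were past a 2-fold difference; the count was 1 after thinning to 5000 UMIs, 2 within females and 1 within males. Of the retinoid genes 0 were past it, 6 within females and 6 within males, 2 with the stricter cell filter, with each cell weighted equally, with at least 1 UMI in each library or without the *Prg4*-led subcluster, and 1 after thinning to 2000 or 5000 UMIs or with all variable features. *Crabp2* changed sign with the stricter filter (0.25), after thinning to 5000 UMIs (0.061) and without the *Prg4*-led subcluster (0.0016). *Aldh1a1*, at -0.60 over all cells, was at 0.27 with the stricter filter. After thinning to 5000 UMIs it was at 1.03, the 1 gene past a 2-fold difference there. *Rara*, at 0.08, was at -0.03 and -0.05 after thinning to 2000 and 5000 UMIs. The cause of these changes was not tested. Under all settings run, *Crabp1* (0.38 to 1.01), *Aldh1a3* (0.17 to 1.81) and *Cyp26b1* (0.05 to 0.59) stayed above 0 and *Rarb* (-1.54 to -0.33) below it. The resolution of 0.2 gave no cluster that could be named fibroblast-like, and barcodes without other filters had no cluster, so those alternatives gave no value. Depth limits *Aldh1a1*, with 69 UMIs, most.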
